A study of Mus musculus with 14 samples.

Results

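The angiogenesis ligands and receptors examined here were 10 genes chosen by symbol: the vascular endothelial growth factor gene Vegfa and its receptors Kdr and Flt1, the angiopoietins Angpt1 and Angpt2 and their receptor Tek, the apelin ligand Apln and its receptor Aplnr, and the secreted proteins Esm1 and Thbs1. They were 10 of the 46904 genes in the expression table, and all 10 passed the filter that left 46102 genes for testing. Whole brain hemispheres were taken 48 h after a 20 min transient occlusion of the middle cerebral artery (MCAO) in male mice aged 12 weeks on a C57BL/6J background. The mice were either wild-type (Cort+/+) or lacked the gene for the neuropeptide cortistatin (Cort-/-). Contralateral (CL) hemispheres, taken from the unoccluded side of operated mice, gave 3 Cort+/+ and 3 Cort-/- libraries, and ischemic (MCAO) hemispheres gave 3 Cort+/+ and 5 Cort-/- libraries. The protocol in the labels gives 5 independent MCAO replicates, but the Cort+/+ MCAO libraries analysed here are those numbered 2, 3 and 4, and replicates 1 and 5 were not analysed here. According to the methods, replicates that did not group clearly could be left out of a comparison, so the mean and spread of this group rest on a part of its replicates. No hemisphere of an unoperated mouse was analysed here, so CL stands for the opposite side of an injured brain.

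VEGF-A is released by many brain cells, mostly astrocytes and neurons, when oxygen falls, and it drives endothelial growth and vessel leakage through the receptor tyrosine kinase encoded by Kdr (VEGFR2). The receptor encoded by Flt1 (VEGFR1) binds the same ligand tightly but signals weakly and acts largely as a decoy. Angiopoietin 1 keeps vessels quiet by activating the endothelial receptor Tie2, encoded by Tek, while angiopoietin 2, stored and released by activated endothelium, opposes it in many settings. Apelin and its receptor form a further endothelial axis, Esm1 marks the tip cells that lead a sprout, and thrombospondin 1, encoded by Thbs1, inhibits endothelial growth.

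The libraries held between 25991279 and 43035211 reads assigned to genes, as recovered from the RPKM values (read counts scaled to gene length and to library size). Cort, the deleted gene, had 64 to 139 reads in the Cort+/+ libraries and 0 to 4 in the Cort-/- libraries, so every library matched its labelled genotype. The microglia and macrophage marker list summed to 59.3 to 75.0 RPKM in the CL libraries and 87.9 to 194 RPKM in the MCAO libraries without overlap, and the 15 endothelial markers were detected in all groups, at a summed 80.6 to 121 RPKM. These are bulk hemispheres, in which fewer cells of a type and less RNA per cell cannot be told apart.

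Averaged over the 14 libraries, Vegfa had the highest level per length at 18.6 RPKM, followed by Apln at 6.88 RPKM and Flt1 at 6.17 RPKM. Tek lay at 2.71 RPKM, Kdr at 1.96 RPKM, Angpt1 at 1.70 RPKM and Thbs1 at 1.06 RPKM. Angpt2 had 0.535 RPKM and Esm1 0.155 RPKM, and Aplnr was the lowest at 0.0722 RPKM. Aplnr rested on 5 to 20 reads per library and Esm1 on 7 to 18, so only large differences could be seen in these genes.

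**Figure D1:**
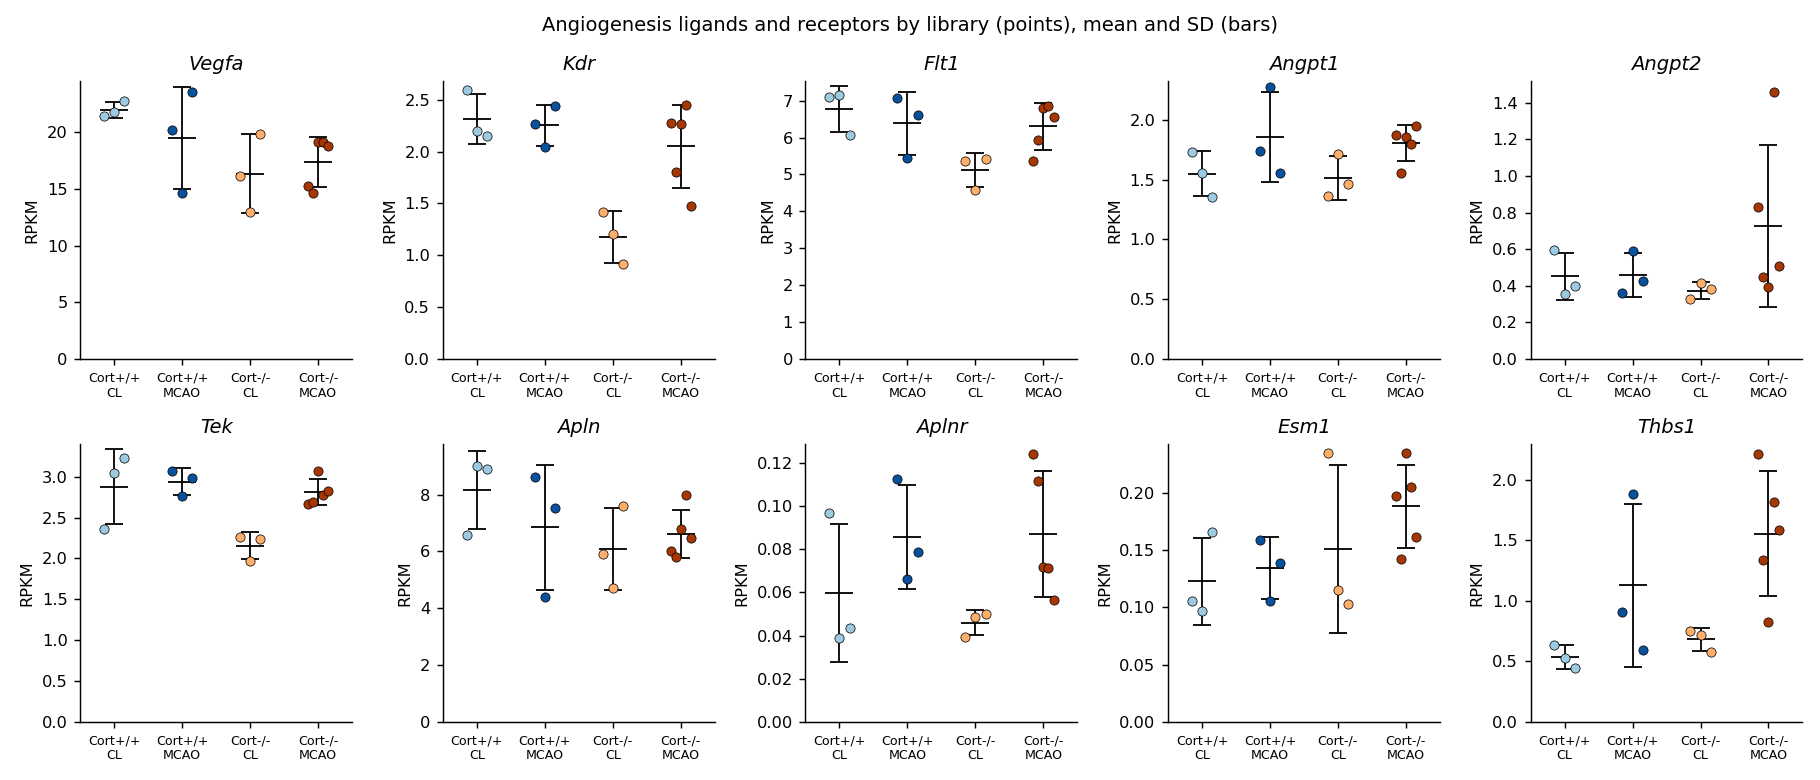
Level of each gene in RPKM (vertical axis, starting at 0, with its own range in each panel) in the 4 groups; points are libraries, the long bar is the group mean and the short bars are 1 SD. The 3 Cort-/- CL libraries lie below all Cort+/+ CL libraries for Vegfa, Kdr, Flt1 and Tek, and the highest Thbs1 values are in MCAO libraries.

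Kdr was the gene with the clearest difference by test, and it was lowest in the Cort-/- CL hemisphere. It had a mean of 1.18 ± 0.25 RPKM (SD, n = 3) in Cort-/- CL hemispheres against 2.31 ± 0.25 RPKM (SD, n = 3) in Cort+/+ CL hemispheres, and it reached 2.05 ± 0.40 RPKM (SD, n = 5) in Cort-/- MCAO hemispheres. Kdr in Cort-/- MCAO against CL was the only change of the 10 genes past an adjusted p of 0.05 in any of the 6 comparisons, and that call was lost when any of 10 of the 14 libraries was left out. Cort-/- CL was the lowest group for Flt1 and Tek as well, although neither passed the test in any comparison.

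The promoters of these 3 receptors are shown, all 3 of which had their lowest mean level in Cort-/- CL. This was not particular to them, since Vegfa, Angpt1, Angpt2, Apln and Aplnr also had their lowest group mean there. Each sequence is the 250 bases before the transcript start, read 5′ to 3′ on the gene's strand, from RefSeq on GRCm38.p6, a different build from the GRCm39 of the gene positions given below. Capitals mark matches to GGAAG on either strand, the core that ETS factors of endothelial cells bind.
Kdr, chr5:75978456-75978705, minus strand: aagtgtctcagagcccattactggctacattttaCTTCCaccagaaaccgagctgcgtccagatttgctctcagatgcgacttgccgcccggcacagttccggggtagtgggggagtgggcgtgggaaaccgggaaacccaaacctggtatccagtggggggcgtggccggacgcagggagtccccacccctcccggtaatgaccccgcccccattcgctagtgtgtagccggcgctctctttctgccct
Flt1, chr5:147726012-147726261, minus strand: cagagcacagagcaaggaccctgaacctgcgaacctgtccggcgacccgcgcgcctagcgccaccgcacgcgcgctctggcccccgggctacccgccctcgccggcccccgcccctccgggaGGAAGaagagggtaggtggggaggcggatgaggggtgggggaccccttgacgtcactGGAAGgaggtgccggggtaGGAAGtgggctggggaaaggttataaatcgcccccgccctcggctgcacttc
Tek, chr4:94739039-94739288, plus strand: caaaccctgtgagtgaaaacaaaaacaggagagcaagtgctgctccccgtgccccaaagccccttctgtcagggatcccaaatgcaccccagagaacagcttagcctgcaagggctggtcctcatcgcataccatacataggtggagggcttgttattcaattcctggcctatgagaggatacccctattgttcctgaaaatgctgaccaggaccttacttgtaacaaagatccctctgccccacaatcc
Flt1 held 3 matches to GGAAG, at 128, 71 and 52 bases before the start, Kdr held 1 at 216 bases before the start, and Tek held none in this window, while 64.1% of 32851 promoter windows of the same length held at least 1. The core of the hypoxia response element, ACGTG on either strand, was found in none of these 3 windows and in 16.6% of all windows. Neither motif contains the other. GC made up 61.6% of the Kdr window, 70.4% of the Flt1 window and 51.2% of the Tek window, against a median of 52.4% over all windows. Of the 10 genes, 6 had an entry, and Angpt1, Angpt2, Aplnr and Thbs1 had none. In the 2 Vegfa windows, ACGTG occurred once, 211 bases before the start in the window at chr17:46025164-46025413. On this minus-strand gene that window lies downstream of the other, at chr17:46032378-46032627. The upstream window held 0 matches to ACGTG.

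Among the receptors, Kdr (chr5:76093487-76139884, minus strand, GRCm39) encodes the principal signalling receptor for VEGF-A. The Cort+/+ CL libraries read 2.60, 2.20 and 2.15 RPKM, and the Cort-/- CL libraries read 1.41, 1.21 and 0.918 RPKM. The Cort+/+ MCAO libraries read 2.27, 2.05 and 2.44 RPKM, and the Cort-/- MCAO libraries read 2.28, 1.80, 2.26, 2.45 and 1.48 RPKM. All 3 Cort-/- CL libraries were below every other library, although the lowest Cort-/- MCAO library was only just above the highest of them, and the other 3 groups overlapped.

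In the fit across all genes, the fitted log2 fold change of Kdr in Cort-/- MCAO against CL was 0.75 ± 0.16 (SE, n = 5 and 3; limma, adjusted p = 0.0396), with group means 1.74-fold apart. In Cort+/+ the same comparison gave a log2 fold change of -0.04 ± 0.18 (SE, n = 3 and 3; limma, adjusted p = 1). The interaction, which is the test of the difference between the 2 genotypes, gave 0.78 ± 0.25 (SE) at an unadjusted p of 0.00716 in the limma fit and did not pass after adjustment (adjusted p = 1.00), so a response particular to Cort-/- was not shown. Between genotypes in CL, the log2 difference was -0.93 ± 0.18 (SE), a mean 1.96-fold higher in Cort+/+ (limma, unadjusted p = 0.000215, adjusted p = 0.324). In MCAO the genotypes differed by -0.15 ± 0.16 (SE), with a 95% interval from -0.50 to 0.21 on the log2 scale. The Cort-/- call was lost (limma adjusted p of 0.0530 to 0.175) without any of the 3 Cort-/- CL libraries, Cort-/- MCAO replicate 1, 2, 3 or 4, Cort+/+ CL replicate 2 or 3, or Cort+/+ MCAO replicate 2. It was also lost with a pseudocount of 1 (limma, adjusted p = 0.0586) and with the fit kept to the 2 groups compared (adjusted p = 0.152).

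Flt1 (chr5:147498414-147662826, minus strand, GRCm39), the high-affinity receptor with weak kinase activity, was also lowest in Cort-/- CL. It read 7.09, 7.17 and 6.06 RPKM in Cort+/+ CL and 5.36, 4.58 and 5.42 RPKM in Cort-/- CL. The MCAO libraries read 7.09, 5.44 and 6.62 RPKM in Cort+/+ and 5.36, 5.94, 6.80, 6.85 and 6.55 RPKM in Cort-/-. The CL groups did not overlap, while Cort-/- MCAO overlapped with every other group. The log2 difference between genotypes in CL was -0.40 ± 0.12 (SE; limma, unadjusted p = 0.00502, adjusted p = 1), and MCAO against CL in Cort-/- gave 0.29 ± 0.11 (SE; limma, adjusted p = 0.224).

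Tek (chr4:94627291-94763224, plus strand, GRCm39), which encodes the angiopoietin receptor Tie2, read 2.36, 3.05 and 3.23 RPKM in Cort+/+ CL and 2.26, 1.96 and 2.23 RPKM in Cort-/- CL. In MCAO it read 3.07, 2.76 and 2.99 RPKM in Cort+/+ and 2.67, 2.70, 3.07, 2.78 and 2.82 RPKM in Cort-/-. Cort-/- CL was again the lowest group without overlap, with Cort+/+ CL replicate 1 close above it. The log2 difference between genotypes in CL was -0.39 ± 0.11 (SE; limma, unadjusted p = 0.00305, adjusted p = 1). MCAO against CL in Cort-/- gave a log2 fold change of 0.37 ± 0.10 (SE; limma, adjusted p = 0.0801), which passed the threshold without Cort+/+ CL replicate 1 (adjusted p = 0.0313).

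Aplnr (chr2:84966569-84970267, plus strand, GRCm39), the apelin receptor, read 0.0391 to 0.0969 RPKM in Cort+/+ CL, 0.0392 to 0.0501 RPKM in Cort-/- CL, 0.0662 to 0.113 RPKM in Cort+/+ MCAO and 0.0564 to 0.124 RPKM in Cort-/- MCAO. The Cort-/- MCAO libraries lay above the Cort-/- CL libraries, but only narrowly. The lowest of them, replicate 5, rested on 8 reads, and the highest Cort-/- CL library, replicate 3, on 6. The log2 difference was 0.34 ± 0.17 (SE; limma, adjusted p = 0.441). This scale adds 0.1 to each RPKM and so understates changes at levels this low; the group means were 1.89-fold apart.

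Taking the 10 genes by whether the groups overlapped, 4 lay wholly higher in Cort-/- MCAO than in Cort-/- CL (Kdr, Tek, Aplnr and Thbs1), where 4.85% of the 46102 genes tested did so. For Aplnr this rested on 5 to 20 reads per library. None of the 10 lay wholly higher in Cort+/+ MCAO than in Cort+/+ CL, against 5.73% of all genes. In CL, 4 of the 10 lay wholly lower in Cort-/- than in Cort+/+ (Vegfa, Kdr, Flt1 and Tek), against 2.35% of all genes. The same 4 had an unadjusted limma p under 0.05, against 1.97% of all genes lower at that threshold. The interaction was larger in Cort-/- at an unadjusted limma p under 0.05 for 3 of the 10 (Kdr, Flt1 and Tek), against 1.5% of all genes. The genotype comparison in CL, the MCAO comparisons within each genotype and the interaction share CL libraries, so these counts are not separate observations. The 10 genes were chosen with earlier results of these data known, so shares above those of all genes are not free of that choice.

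At an adjusted limma p under 0.05, the calls among the 10 genes were few. There were 0 in Cort+/+ MCAO against CL (1 at an unadjusted p under 0.05), where 0.0108% of all genes were called, and 1 in Cort-/- MCAO against CL, where 1.72% were called. Averaging the MCAO effect over both genotypes gave 0 calls (5 at an unadjusted p under 0.05; 1 by voom on recovered reads) against 3.43% of all genes. Between genotypes there were 0 in CL (4 unadjusted) against 0.0152%, and 0 in MCAO (0 unadjusted) against 0.0174%. The interaction gave 0 (3 unadjusted) against 0.00217%. Voom gave the same counts as limma in these other comparisons. The median log2 change of the 10 genes was 0.32 in Cort-/- MCAO against CL, with all 10 above 0, and 0.03 in Cort+/+, with 6 above 0, where the median over all genes was 0 in both. Between genotypes in CL the median was -0.29, with 8 of 10 below 0, against 0 over all genes.

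**Figure D2:**
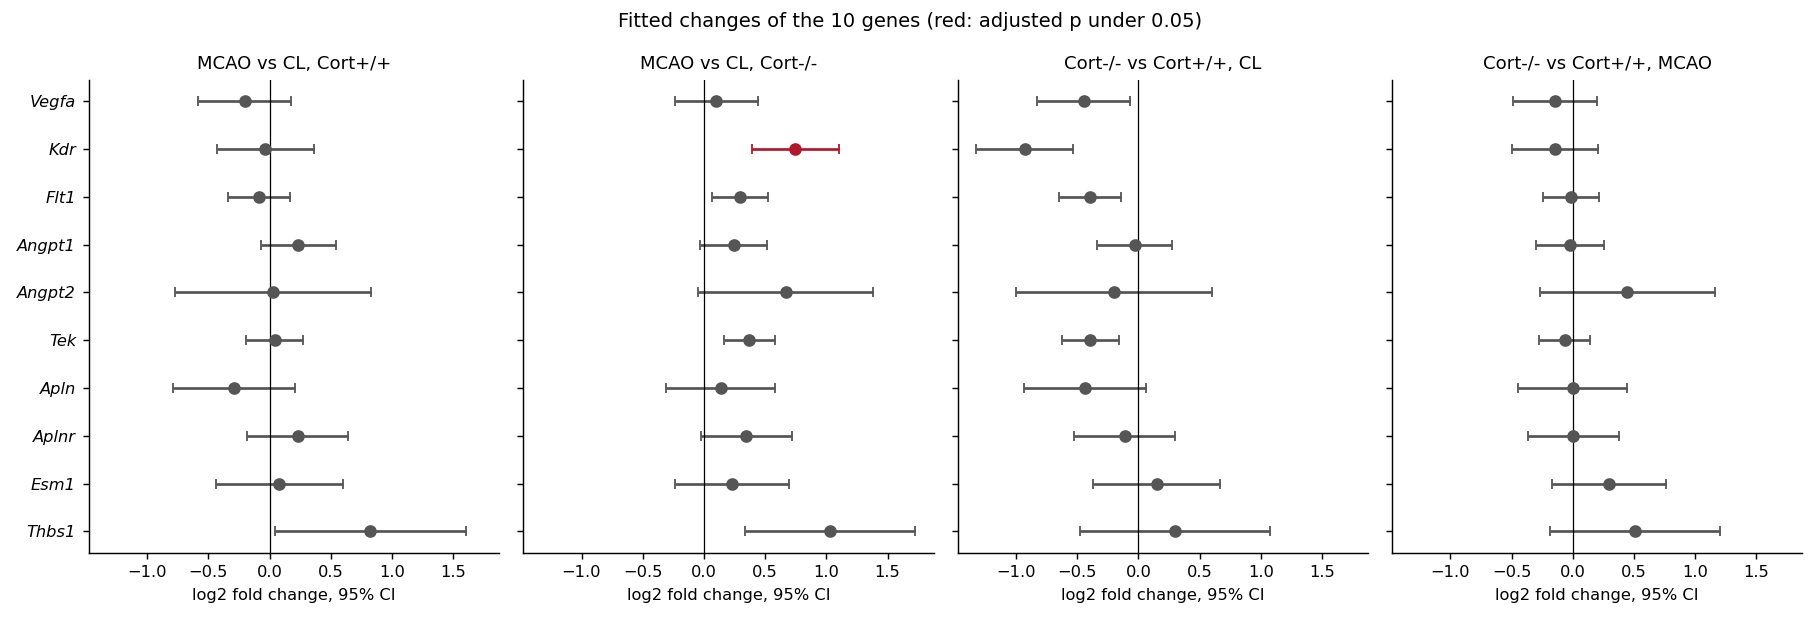
Fitted log2 fold change of each gene (horizontal axis, same range in all panels) with its 95% confidence interval in 4 comparisons; red marks an adjusted p under 0.05. Kdr in Cort-/- MCAO against CL is the only red point, at 0.75, and in Cort-/- against Cort+/+ CL the intervals of Kdr, Flt1, Tek and Vegfa lie below 0.

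Levels of endothelial markers are given here beside those of the receptors. The summed level of the 15 endothelial markers, a list that leaves out the 10 genes, was 90.2 to 104 RPKM in Cort+/+ CL and 80.6 to 94.1 RPKM in Cort-/- CL, which overlap. It was 101 to 116 RPKM in Cort+/+ MCAO and 102 to 121 RPKM in Cort-/- MCAO. In the CL comparison 14 of the 15 markers had a negative log2 difference, with a median of -0.14, but 0 of 15 separated the genotypes without overlap and 0 of 15 had an unadjusted limma p under 0.05. In Cort-/- MCAO against CL all 15 were positive, with a median of 0.43, and 1 passed the adjusted threshold. In that comparison 5 of the 15 lay wholly higher in MCAO than in CL, against 4.85% of all genes. Receptor levels were also set against the mean log2 level of these markers in the same library, without a test. On this log2 scale Kdr was 0.78 lower in Cort-/- than in Cort+/+ CL, without overlap. The corresponding value for Flt1 was -0.25 without overlap, and that for Tek was -0.25 with overlap. For MCAO against CL in Cort-/-, the relative level of Kdr differed by 0.35, that of Flt1 by -0.10 and that of Tek by -0.02. Of 10 pericyte and smooth muscle markers, 2 lay wholly lower in Cort-/- CL than in Cort+/+ CL, against 2.35% of all genes. They were Abcc9 (log2 -0.56) and Rgs5 (log2 -0.32). Over these 10 markers, 4 differences were positive and 6 negative, with a median of -0.04. The part of vessel content in the receptor differences was not tested.

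**Figure D3:**
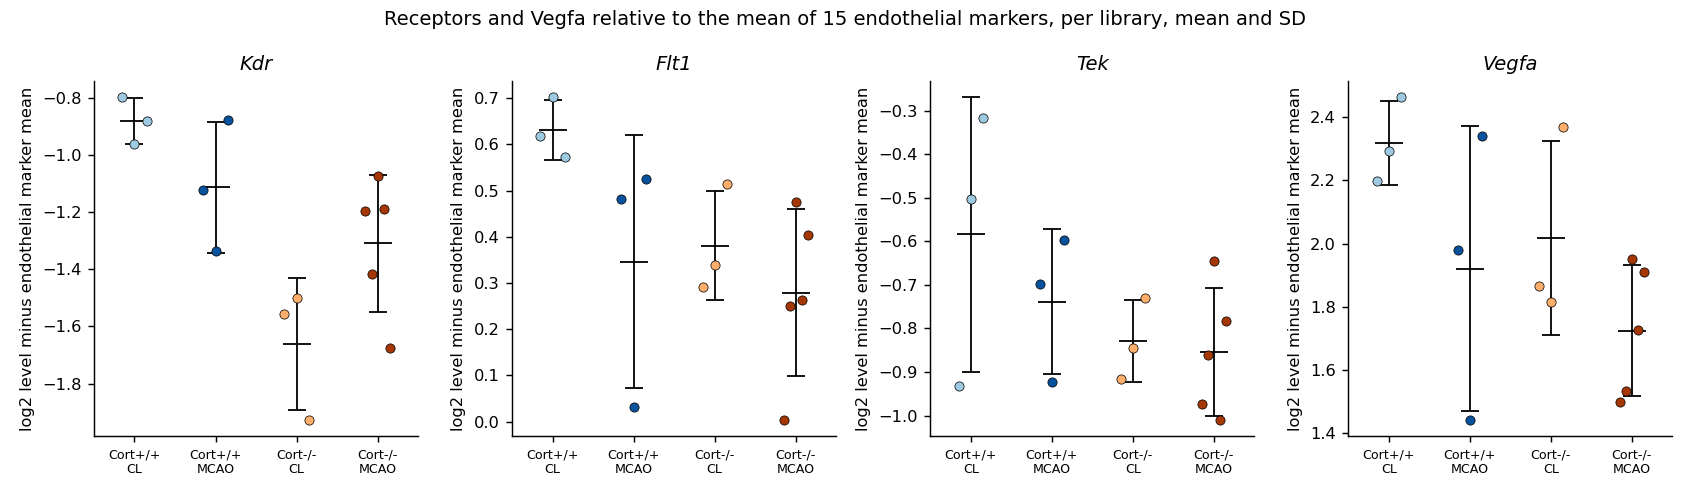
Log2 level of Kdr, Flt1, Tek and Vegfa minus the mean log2 level of 15 endothelial markers in the same library (vertical axis, its own range in each panel); points are libraries and bars show the mean and 1 SD. Kdr in Cort-/- CL, at -1.66 on average, lies below all Cort+/+ libraries, whereas Tek and Vegfa overlap between the CL groups.

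Of the ligands, Vegfa (chr17:46327919-46343309, minus strand, GRCm39) was not higher in the ischemic hemisphere of either genotype beyond the spread between libraries. It read 21.4, 21.8 and 22.7 RPKM in Cort+/+ CL and 16.2, 12.9 and 19.9 RPKM in Cort-/- CL. In MCAO it read 20.2, 14.6 and 23.5 RPKM in Cort+/+ and 15.3, 14.6, 19.1, 19.1 and 18.8 RPKM in Cort-/-. All Cort+/+ CL libraries were above every Cort-/- library of either hemisphere, and the Cort+/+ MCAO libraries spanned the widest range. The log2 change with MCAO was -0.20 ± 0.18 (SE; 95% interval -0.58 to 0.18) in Cort+/+ and 0.10 ± 0.16 (SE; 95% interval -0.24 to 0.44) in Cort-/-. Between genotypes in CL it was -0.45 ± 0.18 (SE; limma, unadjusted p = 0.0246, adjusted p = 1).

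Apln (chrX:47114019-47123775, minus strand, GRCm39), the apelin precursor, varied alongside Vegfa. It read 6.59, 9.02 and 8.89 RPKM in Cort+/+ CL, 5.91, 4.73 and 7.59 RPKM in Cort-/- CL, 8.64, 4.38 and 7.52 RPKM in Cort+/+ MCAO and 6.00, 5.82, 6.80, 7.98 and 6.49 RPKM in Cort-/- MCAO. All 4 groups overlapped, and Cort+/+ MCAO replicate 3 was the lowest library for Apln and among the lowest for Vegfa. The log2 difference between genotypes in CL was -0.43 ± 0.23 (SE; limma, unadjusted p = 0.0833, adjusted p = 1), and with MCAO it was -0.29 ± 0.23 (SE) in Cort+/+ and 0.14 ± 0.21 (SE) in Cort-/-.

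Angpt1 (chr15:42288058-42540417, minus strand, GRCm39), the activating Tie2 ligand, differed little between groups. Its means were 1.55 ± 0.19 RPKM in Cort+/+ CL, 1.51 ± 0.18 RPKM in Cort-/- CL, 1.86 ± 0.38 RPKM in Cort+/+ MCAO (SD, n = 3 each) and 1.81 ± 0.15 RPKM in Cort-/- MCAO (SD, n = 5). The log2 change with MCAO was 0.24 in both genotypes (limma, averaged over both 0.24 ± 0.10 SE, unadjusted p = 0.0269, adjusted p = 0.246).

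Angpt2 (chr8:18739202-18791603, minus strand, GRCm39), the Tie2 ligand of activated endothelium, stood out in single Cort-/- MCAO libraries. It read 0.596, 0.357 and 0.399 RPKM in Cort+/+ CL, 0.326, 0.414 and 0.382 RPKM in Cort-/- CL and 0.359, 0.592 and 0.426 RPKM in Cort+/+ MCAO. The Cort-/- MCAO libraries read 0.833, 0.446, 0.393, 1.46 and 0.506 RPKM. Replicates 4 and 1 of that group were the highest 2 of the 14 libraries, at 217 and 129 reads, and the other 3 lay within the range of Cort+/+. The log2 change with MCAO in Cort-/- was 0.67 ± 0.33 (SE; limma, unadjusted p = 0.0651, adjusted p = 0.438) and in Cort+/+ it was 0.02 ± 0.37 (SE). Within this group, summed endothelial markers were highest in the same 2 libraries, at 121 and 113 RPKM, as were microglia and macrophage markers at 158 and 194 RPKM, and their part in the Angpt2 values was not tested.

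In a ratio of the RPKM of 2 genes in 1 library, the library scaling cancels. The log2 values tested add 0.1 to each RPKM, so for a low gene such as Angpt2 they are not wholly free of it. The RPKM ratio of Angpt2 to Angpt1 averaged 0.289 ± 0.057 in Cort+/+ CL, 0.247 ± 0.035 in Cort+/+ MCAO, 0.247 ± 0.012 in Cort-/- CL (SD, n = 3 each) and 0.403 ± 0.245 in Cort-/- MCAO (SD, n = 5). Its log2 value differed by 0.11 between MCAO and CL (exact two-sided permutation test within genotype over 1120 relabellings, p = 0.703, adjusted over 4 ratio tests p = 0.703). It differed by 0.15 between Cort-/- and Cort+/+ (exact permutation within hemisphere, p = 0.579, adjusted p = 0.703). Without Cort-/- MCAO replicate 4, these log2 differences were -0.025 and 0.019. The Flt1 to Kdr ratio was 2.94 ± 0.28 in Cort+/+ CL, 2.83 ± 0.26 in Cort+/+ MCAO, 4.50 ± 1.22 in Cort-/- CL (SD, n = 3 each) and 3.18 ± 0.78 in Cort-/- MCAO (SD, n = 5). The lowest Cort-/- CL library, at 3.79, exceeded the highest Cort+/+ CL library, at 3.26. The log2 ratio was 0.33 higher in Cort-/- than in Cort+/+ over both hemispheres (exact permutation, p = 0.05, adjusted p = 0.175) and 0.25 lower, at -0.25, in MCAO than in CL (exact permutation, p = 0.0875, adjusted p = 0.175). Without Cort-/- MCAO replicate 1 the genotype difference was 0.38 (exact permutation, adjusted p = 0.0457). Without Cort-/- CL replicate 3 it was 0.23 and the MCAO difference was -0.15 (exact permutation, adjusted p = 0.336 and 0.524).

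**Figure D4:**
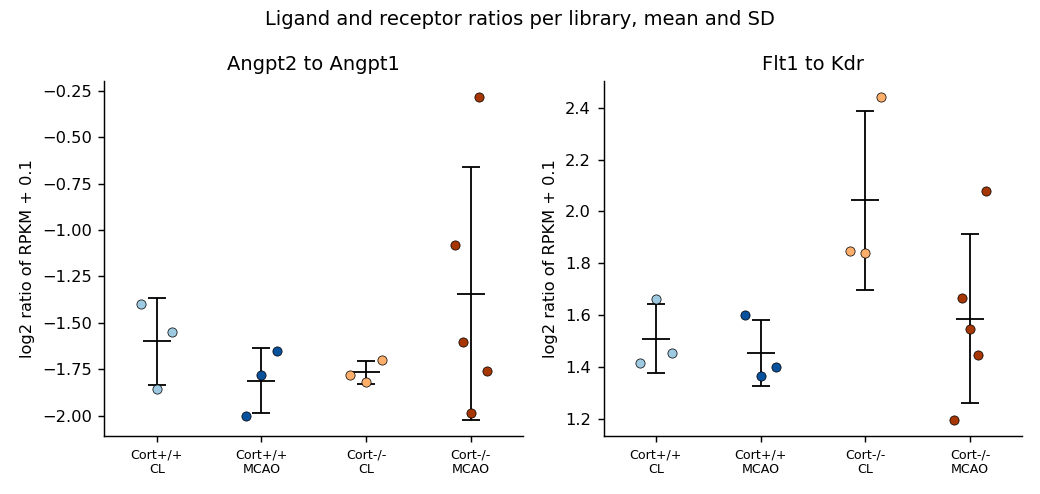
Log2 ratio of Angpt2 to Angpt1 and of Flt1 to Kdr per library (vertical axis, from RPKM plus 0.1); points are libraries and bars show the mean and 1 SD. Flt1 to Kdr is highest in Cort-/- CL, at 2.04 on average, and Angpt2 to Angpt1 spreads most in Cort-/- MCAO, from -1.99 to -0.28.

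Thbs1 (chr2:117941974-117957616, plus strand, GRCm39), the thrombospondin gene, had the largest MCAO effect of the 10 genes in both genotypes. It read 0.636, 0.524 and 0.445 RPKM in Cort+/+ CL, 0.749, 0.715 and 0.576 RPKM in Cort-/- CL, 0.903, 1.88 and 0.597 RPKM in Cort+/+ MCAO and 2.21, 1.34, 0.822, 1.82 and 1.59 RPKM in Cort-/- MCAO. All Cort-/- MCAO libraries were above the Cort-/- CL libraries, while Cort+/+ MCAO replicate 4 lay within the Cort+/+ CL range. The log2 change was 0.82 ± 0.36 (SE; limma, adjusted p = 0.597) in Cort+/+ and 1.03 ± 0.32 (SE; limma, adjusted p = 0.149) in Cort-/-. Averaged over both genotypes it was 0.93 ± 0.24 (SE; limma, adjusted p = 0.0567), and the interaction was 0.20 ± 0.48 (SE; limma, unadjusted p = 0.678). The averaged change passed without Cort-/- MCAO replicate 3 (adjusted p = 0.0187) or Cort+/+ MCAO replicate 4 (adjusted p = 0.0194), and by voom on recovered reads (adjusted p = 0.0187). Those 2 libraries also had the lowest microglia and macrophage marker sums of their groups, at 102 and 87.9 RPKM, and the part of injury extent was not tested. Platelets are rich in thrombospondin 1. Of 7 platelet markers, 0 were called with MCAO on average and 2 had an unadjusted limma p under 0.05, Pf4 (log2 0.64 ± 0.28 SE; unadjusted p = 0.0415, adjusted p = 0.307) and Itga2b (log2 0.35 ± 0.15 SE; unadjusted p = 0.0374, adjusted p = 0.291). Over the 7 platelet markers, 4 changes were positive and 3 negative, with a median log2 change of 0.09. Gp1bb, with a negative change (log2 -0.10), averaged 78.7 RPKM, while Pf4, the next highest, averaged 0.812 RPKM. Whether Gp1bb reads platelets in these hemispheres was not tested. The smooth muscle gene Tagln (log2 1.32), the fibroblast gene Dcn (log2 0.53) and the reactive astrocyte genes Vim (log2 2.15) and Gfap (log2 1.84) rose with MCAO on average (limma, adjusted p = 0.00056 to 0.00842). Their lists did not move as a whole. On average 3 of 10 pericyte and smooth muscle markers, 1 of 7 fibroblast markers and 3 of 8 astrocyte markers had a negative change. Among these were Myh11 (log2 -0.27) and Slc1a2 (log2 -0.17). Other lists did move as a whole on average. All 11 microglia and macrophage markers had a positive change, with 6 called and a median log2 change of 0.73. All 15 endothelial markers were positive too, with 4 called and a median of 0.32. The part of any of these cells in the Thbs1 values was not tested.

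Esm1 (chr13:113346021-113354632, plus strand, GRCm39), which encodes a proteoglycan secreted by endothelial tip cells, read 0.0965 to 0.166 RPKM in Cort+/+ CL, 0.103 to 0.235 RPKM in Cort-/- CL, 0.105 to 0.159 RPKM in Cort+/+ MCAO and 0.143 to 0.235 RPKM in Cort-/- MCAO. Its groups overlapped throughout, and no difference was detectable at this depth.

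The genes whose log2 levels followed each member most closely were sought among genes averaging 1 RPKM or more, by Pearson's r over the same 14 libraries, as a description. Each r is among the 3 largest of 15062 or 15063. With so many genes and so few libraries, a high r does not by itself show a link. For Kdr they were Aldh1a1 (r = 0.898), Acvrl1 (r = 0.889), an endothelial receptor of the TGF-beta family, and Fzd6 (r = 0.887), a Wnt receptor. For Flt1 they were Kif13a (r = 0.834), the endothelial adhesion receptor Adgrl4 (r = 0.807) and Wfdc1 (r = 0.782). For Tek they were Utp6 (r = 0.846), Mmp28 (r = 0.830) and Mcam (r = 0.829), an adhesion molecule of vessels. Apln was followed by Appl2 (r = 0.879), Vegfa (r = 0.860) and Arsg (r = 0.839), and Vegfa by S100b (r = 0.889), Gm25596 (r = 0.886) and Mir485 (r = 0.861). Angpt2 was followed by 2410006H16Rik (r = 0.954), Igfbp3 (r = 0.927) and Il17rc (r = 0.923), and Angpt1 by Lgals8 (r = 0.865), Plscr2 (r = 0.860) and Tmem176b (r = 0.855). Thbs1 was followed by Tgm2 (r = 0.982), a transglutaminase, Tapbp (r = 0.981) and Myo1c (r = 0.980). Aplnr was followed by Etfbl (r = 0.889), Mrpl28 (r = 0.879) and Etfb (r = 0.867), and Esm1 by ENSMUSG00000131972 (r = 0.740), Mpst (r = 0.734) and Snord14a (r = 0.731).

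Beyond the 10 genes, 83 other genes of the pathway were tested in 6 lists. In the averaged MCAO comparison 8 of the 83 (9.64%) were called, all upward, against 3.43% of all genes. Among genes with a mean RPKM of 0.5 or above it was 7 of 76 (9.21%) against 7.73%, so the share called was near that of expressed genes in general. Of 7 further VEGF family ligands and receptors, 0 passed the threshold in the averaged MCAO comparison (2 at an unadjusted p under 0.05; limma), with a median log2 change of 0.10. Vegfb, the most abundant of them at 41.0 RPKM, changed by -0.04 ± 0.04 (SE). Of 5 Tie and apelin partners, 1 rose, Ptprb (log2 0.34 ± 0.09 SE; limma, adjusted p just under 0.05), the phosphatase that restrains Tie2, and Tie1 had 0.30 ± 0.08 (SE; limma, adjusted p = 0.0558). Of 20 Notch and tip cell genes, 1 rose, Notch1 (log2 0.32; limma, adjusted p = 0.0434), with a median of 0.18.

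The counts in this paragraph stand beside 3.43% of all genes and 7.73% of genes with a mean RPKM of 0.5 or above called with MCAO on average. Of 21 other angiogenic factors and receptors, 3 rose with MCAO on average and 0 fell. They were Eng, the endothelial TGF-beta coreceptor endoglin (log2 0.38; limma, adjusted p = 0.00647), and the endothelin receptors Ednrb (log2 0.29; adjusted p = 0.0221) and Ednra (log2 0.32; adjusted p just under 0.05). Of 15 angiogenesis inhibitors, 2 rose, with Serpinf1, which encodes the anti-angiogenic factor PEDF, at a log2 change of 0.47 (limma, adjusted p = 0.00708). Of 15 hypoxia targets, 1 rose, the glycolytic enzyme gene Ldha (log2 0.24; limma, adjusted p = 0.00755), with a median of 0.06 over the list. In Cort-/- MCAO against CL alone, the called genes of the 6 lists were Eng (log2 0.56; adjusted p = 0.00990), Edn1 (log2 0.68; adjusted p = 0.0474), which encodes the vasoconstrictor endothelin 1, Serpinf1 (log2 0.58; adjusted p = 0.0215) and Ldha (log2 0.26; adjusted p = 0.0379), all by limma. These were 4 of the 83 (4.82%), against 1.72% of all genes and 3.93% of genes with a mean RPKM of 0.5 or above.

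In the comparison of genotypes in CL, 0 of the 83 passed (limma), and the list medians lay between -0.17 and 0.06 on the log2 scale. Without overlap, 9 of the 83 (10.8%) were lower in Cort-/- CL than in Cort+/+ CL. This compared with 2.35% of all genes and 2.69% of genes with a mean RPKM of 0.5 or above. The 9 were Flt4, Angpt4, Fgf1, Egfl7, Ramp2, Edn1, Eng, Acvrl1 and Ankrd37. Edn1 was lower in all Cort-/- CL libraries than in any Cort+/+ CL library (log2 -0.62; limma, unadjusted p = 0.00356, adjusted p = 1), and so were Eng (log2 -0.38; limma, unadjusted p = 0.00162, adjusted p = 0.856) and Acvrl1 (log2 -0.37; limma, unadjusted p = 0.00365, adjusted p = 1). Edn1, Eng and Acvrl1 are given with values because theirs were the largest differences among the 8 of these genes above 0.5 RPKM, a choice made after the values were seen.

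**Figure D5:**
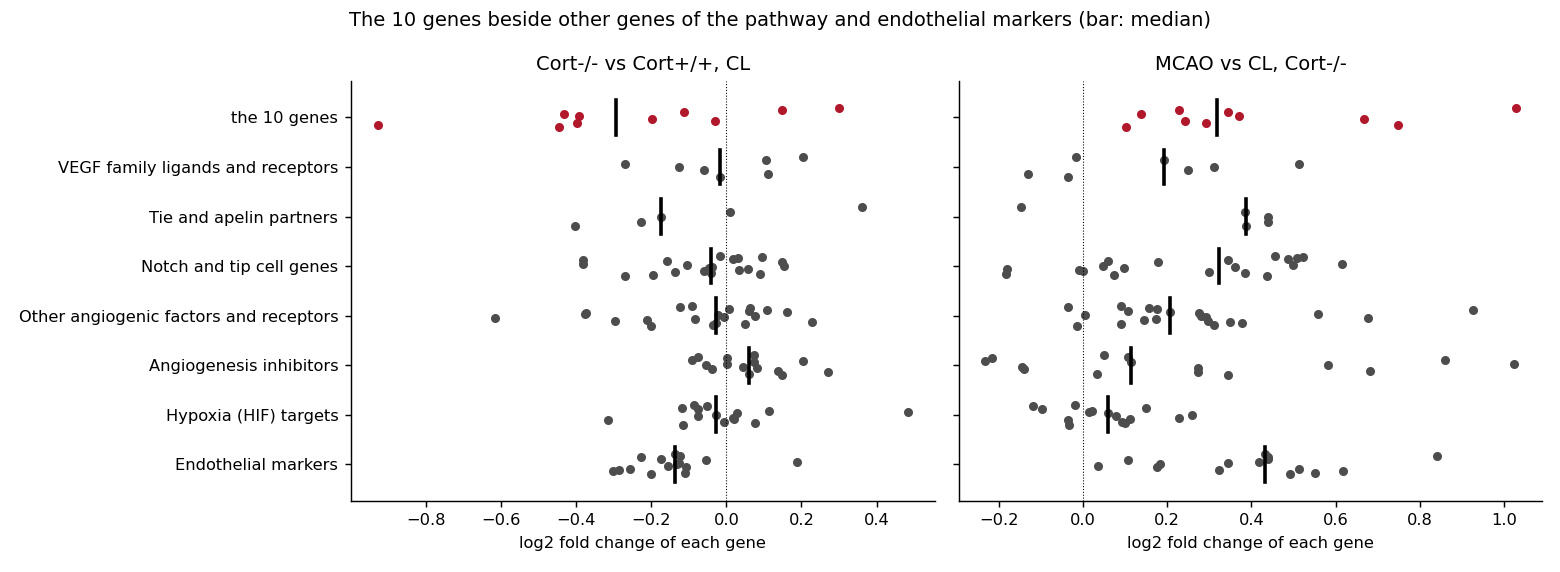
Log2 fold change of each gene (points) in 2 comparisons for the 10 genes (red), 6 lists of other genes of the pathway and the endothelial markers; black bars are list medians. In Cort-/- against Cort+/+ CL the lowest point is Kdr, at -0.93, and in Cort-/- MCAO against CL the medians of the 10 genes and of the endothelial markers are 0.32 and 0.43.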

How the data were processed

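Libraries were made with a stranded mRNA kit and sequenced as paired ends. With reanalyzerGSE, the authors mapped reads to the GRCm39 build, summarised them per GENCODE gene and deposited one table of RPKM values; the source of gene lengths and library scaling was not given in the sources used here. Counts were not analysed here, so limma (3.58.1, R 4.3.3) stood in for the study's count test: log2(RPKM + 0.1), genes above 0 in at least 2 libraries, 1 mean per group over all 14 libraries, a trended prior variance and Benjamini-Hochberg adjustment over 46102 genes at 0.05. Whole reads were recovered from the RPKM steps (100% of 495656 values above 0 within 0.01 reads) for depth and for voom. Fold changes on the log2(RPKM + 0.1) scale understate those of low genes. Ratios were compared by exact permutation with 4 p-values adjusted together (Python 3.11.15, numpy 2.4.6). Methods were tested on simulated data. All 10 genes were described, with the 3 most alike genes per member, and per list up to 4 genes called on average with at least 0.5 RPKM. The members and lists were chosen with earlier results of these data known. The replicates are stated to be independent; the labels do not say which CL and MCAO hemispheres came from 1 mouse. Levels relative to endothelial markers were added after the data were seen. Gene positions are from GENCODE on GRCm39. Alternatives were other pseudocounts, filters, scalings, weights, sample subsets, voom, a replicate block and leaving out each library.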

Additional observations from a re-analysis of the deposited data

How the results depend on the processing

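The correlations of deviations between same-numbered libraries were 0.32 and -0.14 in Cort+/+, and -0.06, -0.24 and 0.03 in Cort-/-. With groups this small, these values cannot decide whether same-numbered hemispheres came from 1 mouse. With a replicate block the counts of called genes among the 10 stayed at 0 for MCAO against CL in Cort+/+, 1 in Cort-/-, 0 for the mean of both genotypes and 0 in each genotype comparison and the interaction. For MCAO against CL in Cort-/-, the count of 1 became 0 with a pseudocount of 1 or with only the groups compared in the fit, 2 (Kdr and Tek) with a filter of mean RPKM of at least 0.5 or with TPM scaling, and 0 to 2 when single libraries were left out, and 792 called genes over the table became 86 with only the groups compared. For the mean of both genotypes the count of 0 became 1 (Thbs1) with a pseudocount of 0.01, a filter of mean RPKM of at least 0.5, array weights or voom, and was 0 to 1 when single libraries were left out. The counts in the other 4 comparisons did not move under any alternative run. The Angpt2 to Angpt1 log2 ratio between MCAO and CL became -0.00614 with a pseudocount of 1 and -0.025 without Cort-/- MCAO replicate 4, and ranged from -0.03 to 0.19 over left-out libraries; the Flt1 to Kdr log2 ratio between genotypes ranged from 0.23 to 0.38. Of the single fold changes, 53 values with no call changed sign and no called value did. The causes were not tested. Depth limited Aplnr and Esm1.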
